A study of Mus musculus with 2 samples.

Results

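MHC class II carries peptides from ingested proteins to the cell surface, where CD4+ T cells read them. In the mouse liver, 7 genes of this system were followed through the cells of a single-cell RNA-seq experiment: H2-Aa, H2-Ab1 and H2-Eb1, which encode the alpha and beta chains of the presenting molecules; Cd74, the invariant chain that fills the groove of a new molecule; H2-DMa and H2-DMb1, the subunits of the exchange factor that loads peptide; and Ciita, the transactivator that switches the set on. They were taken by symbol, and all 7 were found among the 31053 gene rows of the expression matrix. None of them took part in the naming of cells. Dendritic cells, macrophages and B cells are the professional antigen-presenting cells that make these genes constantly, liver sinusoidal endothelial cells can make them, and hepatocytes are not known for it unless they meet interferon-gamma, so a class II read in a hepatocyte barcode raises the question of whether a presenting cell, or its RNA, shared the droplet.

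The cells came from 3 female C57BL/6 mice (BL6 in the labels), 6 to 8 weeks old, whose livers were taken on day 6 after a hydrodynamic injection of Sleeping Beauty transposons into the tail vein, which leaves the plasmid in part of the hepatocytes. A CAGGS promoter drove either NRAS(G12V), an oncogenic RAS, in 2 mice or NRAS(G12V/D38A), a control with a changed effector loop, in 1 mouse, each joined through an IRES to the yellow fluorescent protein mVenus, so every animal carried mVenus and an NRAS transgene and none was left uninjected. Each liver suspension was tagged with a hashtag antibody, sorted for live mVenus-positive cells, pooled and run on the 10x 3′ platform, and the cells other than hepatocytes described here passed that same sort. The deposited table gives hashtag 1 to the D38A mouse and hashtags 2 and 3 to the G12V mice. The methods of the study place D38A at hashtag 3 and G12V at the other tags, so the mice are named by hashtag below and the constructs were not compared.

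The library held 142080194 UMIs, each a counted mRNA molecule, in 13151 barcodes, of which 10211 passed the quality filter (at least 500 genes and 1000 UMIs, under 20% mitochondrial UMIs) and 3707 of those were called for 1 mouse. Cells were sorted into classes by marker lists that hold none of the 7 genes. A barcode was called a hepatocyte where at least 1.636% of its UMIs came from 10 hepatocyte genes such as Alb and Ttr. Below that cut it joined another class when it held at least 3 different markers of the class's list and at least 2 times as many UMIs of it as of any other list. This gave 8392 hepatocyte, 754 dendritic, 577 endothelial, 83 T or NK (T/NK), 51 B, 39 macrophage and 15 plasmacytoid barcodes. 289 barcodes joined no class. The hepatocyte cut has no clear gap, with 307 hepatocyte barcodes within 1.2 times above it and 196 others within 1.2 times below it.

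The gates themselves fix high levels of their own markers, which are given as a description. Clec9a and Xcr1 of type 1 dendritic cells read 235.8 and 230.7 CPM (counts per 1e6 UMIs) in the dendritic class, and Ccr7, the receptor of migrating dendritic cells, 995.6 CPM. The Kupffer cell gene Clec4f read 1956 CPM in the macrophage class and 0.132 in the dendritic class, Cd79a 2182.4 CPM in the B class, and Stab2 728.4 CPM in the endothelial class. Not all dendritic markers were private to dendritic cells. Zbtb46 read 103.8 CPM in endothelial against 34.88 in dendritic barcodes, and Ccr7 595.2 CPM in B barcodes. Cd209a read 120.8 CPM in plasmacytoid against 5.264 in dendritic barcodes. The plasmacytoid marker Ly6d read 3047 CPM in its own class but also 1095 CPM in B barcodes and 1065 CPM in hepatocytes. Hepatocyte RNA was met everywhere: Alb read 1216 to 3063 CPM in the other 6 classes against 27113 in hepatocytes. Of the dendritic barcodes 283, 436 and 12 were called for the hashtag 1, 2 and 3 mice and of the endothelial ones 22, 41 and 479, so the classes were drawn unevenly from the animals.

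Most of the 7 genes share their place in the genome, and the set shares its switch. In GRCm38, 5 of the 7 lie within 197.1 kb of chromosome 17, in the order H2-DMa (34119541-34139101), H2-DMb1 (34153072-34160230), H2-Ab1 (34257689-34269419), H2-Aa (34282744-34287823) and H2-Eb1 (34305867-34316674), all on the plus strand but H2-Aa. Ciita lies on chromosome 16 (10480059-10528418, plus strand), and the position of Cd74 is not given here. CIITA does not bind DNA itself but docks on factors held at the promoters, one of them NF-Y, which binds the CCAAT core of the Y box. The 250 bases before the start of H2-Aa and of H2-Eb1 are printed 5′ to 3′ on the strand of the gene (RefSeq, GRCm38.p6). They are shown because CIITA acts through factors held at promoters. Of the 3 chain genes, 2 were matched in the promoter table, and H2-Ab1 was not. Capitals mark CCAAT or, on the other strand, ATTGG.
H2-Aa, chr17:34287824-34288073, minus strand: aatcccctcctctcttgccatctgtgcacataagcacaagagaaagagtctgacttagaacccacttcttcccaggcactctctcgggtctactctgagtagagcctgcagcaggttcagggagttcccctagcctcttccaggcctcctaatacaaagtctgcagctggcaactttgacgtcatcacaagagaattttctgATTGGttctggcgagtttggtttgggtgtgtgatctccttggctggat
H2-Eb1, chr17:34305617-34305866, plus strand: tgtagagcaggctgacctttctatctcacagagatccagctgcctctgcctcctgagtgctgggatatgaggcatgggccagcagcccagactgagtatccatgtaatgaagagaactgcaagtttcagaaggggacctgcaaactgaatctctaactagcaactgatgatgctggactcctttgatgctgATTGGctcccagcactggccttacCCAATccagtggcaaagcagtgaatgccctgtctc
H2-Aa held 1 match, read on the other strand 48 bases before the start, and H2-Eb1 held 2, at 59 bases on the other strand and at 35 bases on its own. The 5 letters are common: 11120 of 32851 promoter windows of this length (33.8%) held them on either strand. A match is thus a description of these windows, and whether it is a site was not tested.

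Dendritic barcodes were filled with class II mRNA. The 7 genes together made 62325 CPM there, a median of 653 UMIs in a barcode, and every one of the 754 barcodes held some. B barcodes followed with 26823 CPM (median 65 UMIs), then macrophage with 21871 CPM (median 44) and plasmacytoid with 17342 CPM (median 54). The macrophage and plasmacytoid levels lean on loaded barcodes. Macrophage barcodes held 161.4 UMIs on average and up to 796, and 1 plasmacytoid barcode held 560 of that class's 1292. At least 3 dendritic markers were found in 3 of 39 macrophage and 2 of 15 plasmacytoid barcodes, which were kept in these levels. Far below came T/NK with 2199 CPM, endothelial with 1250 CPM and hepatocyte barcodes with 468.5 CPM, each with a median of 0 UMIs. CPM of 3′ UMIs counts molecules and needs no length scaling, but the detection of a gene's 3′ end still differs from gene to gene.

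The chain genes ran in parallel. H2-Aa read 10006, 11349 and 11279 CPM in the dendritic barcodes of the hashtag 1, 2 and 3 mice. In B barcodes it read 4724, 3765 and 4730 CPM, and in macrophage barcodes 4241, 4235 and 1984 CPM. In endothelial barcodes it read 651.8, 290.8 and 86.58 CPM, and in hepatocytes 348.4, 68.69 and 163.5 CPM. Each dendritic value lay above each B and macrophage value, and each of those above each endothelial and hepatocyte value, while the endothelial and hepatocyte values overlapped. H2-Ab1 and H2-Eb1 read 10853 to 13265 CPM in the dendritic barcodes of the 3 mice, 3173 to 4449 CPM in B, 1927 to 5230 CPM in macrophage, 82.05 to 721.3 CPM in endothelial and 67.89 to 413.5 CPM in hepatocyte barcodes. C57BL/6 mice transcribe H2-Eb1 but are known to lack a working E alpha chain to pair with it.

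Cd74 was the most abundant of the 7 in each class taken whole. It read 24430, 27525 and 24074 CPM in dendritic barcodes, 16512, 13522 and 13882 CPM in B barcodes, and 11791, 9013 and 5299 CPM in macrophage barcodes. Endothelial barcodes held 1790, 965.3 and 195.3 CPM and hepatocytes 900.4, 163.5 and 408.4 CPM. Cd74 took 52.9% of the class II UMIs of B barcodes but 41.77% of those of dendritic and 41.53% of those of macrophage barcodes (95% exact interval for dendritic barcodes 41.63 to 41.91%). That excess of invariant chain in B barcodes is a description, since shares were not tested.

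The loading factor was split between classes. H2-DMa read 687.0, 720.5 and 748.8 CPM in dendritic barcodes and 917.3, 453.3 and 696.2 CPM in B barcodes, overlapping ranges. H2-DMb1 read 379.1, 415.6 and 426.5 CPM in dendritic barcodes but 45.87, 157.7 and 61.43 CPM in B barcodes, which rest on 1, 8 and 3 UMIs. Macrophage barcodes held 235.6, 495.9 and 226.7 CPM of it. The near-identical neighbour H2-DMb2 went the other way, with 373 CPM in B against 72.78 CPM in dendritic barcodes, and reads of the pair can be split between them by the mapping, so their separate levels are uncertain. Ciita, the rarest of the 7, read 183.5, 98.55 and 163.8 CPM in B, 100.2, 87.08 and 85.3 CPM in dendritic, and 47.12, 40.21 and 28.34 CPM in macrophage barcodes. In hepatocytes it read 4.079, 0.598 and 2.2 CPM, and it was found in 0.87% of their barcodes.

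**Figure D1:**
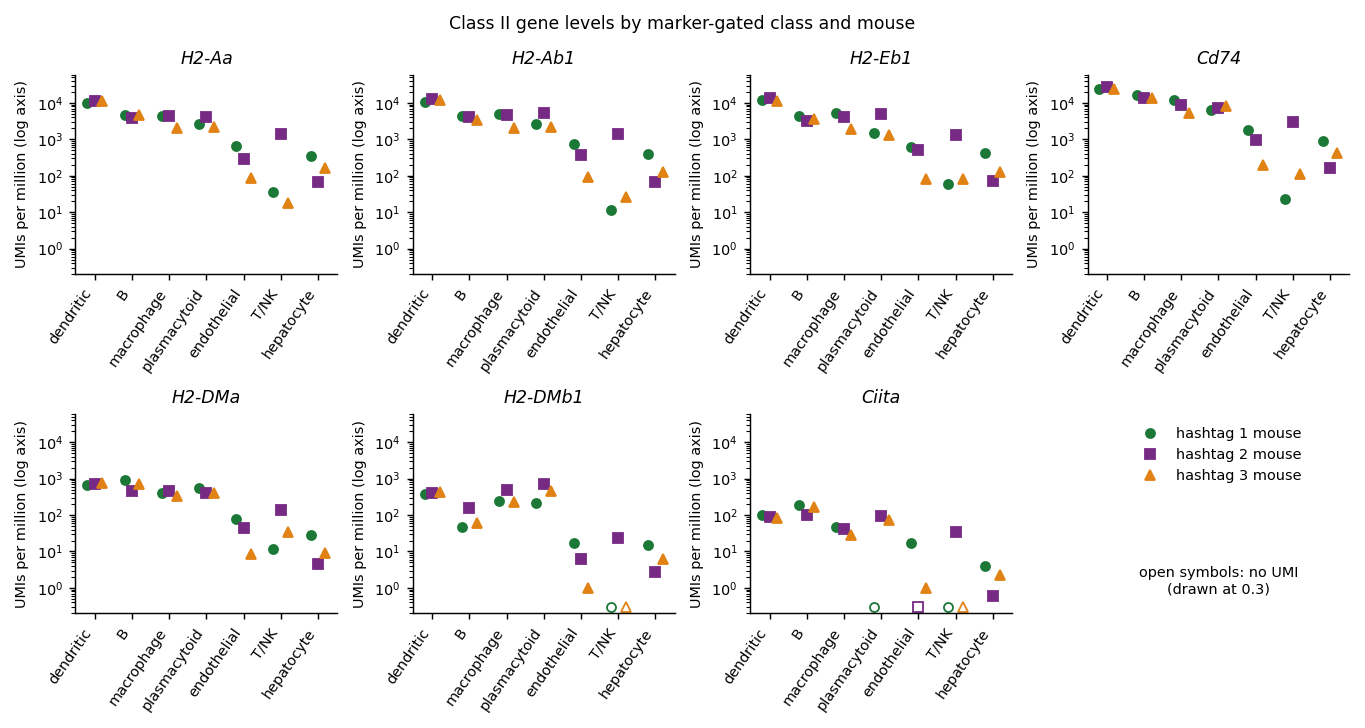
Level of each of the 7 class II genes (CPM, log axis) in the marker-gated classes, 1 symbol for each mouse, with no error bar and with open symbols where no UMI was read. Dendritic, B, macrophage and plasmacytoid symbols sit well above the endothelial and hepatocyte ones for H2-Aa, where the dendritic values run from 10006 to 11349 CPM and the hepatocyte values from 68.69 to 348.4 CPM, and the hashtag 2 T/NK symbol at 1418 CPM stands above the other 2 T/NK symbols.

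The classes were compared between all 10 pairs of the 5 classes on UMIs summed per mouse and class, with the mouse as a block, by the edgeR quasi-likelihood test with Benjamini-Hochberg adjustment over the 3497 genes tested. Sums of under 10 barcodes were left out, which removed the macrophage sum of the hashtag 3 mouse and all plasmacytoid sums, so a macrophage value rests on 2 mice. All 7 genes passed the low-count filter.

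Against hepatocytes, all 7 genes were higher in dendritic barcodes, where 27.6% of all genes tested were called higher. The log2 differences ran from 5.83 for Ciita (SE 0.78, edgeR adjusted p = 2.74e-05) to 6.28 for H2-Ab1 (SE 1.23, adjusted p = 0.00112), with a median of 6.08 beside -0.085 over all genes tested. All 7 were also higher in B than in hepatocyte barcodes (background 17.7%), from 3.39 ± 0.94 (SE) for H2-DMb1 to 6.05 ± 0.90 for Ciita, and in macrophage barcodes (background 18.2%), from 3.82 ± 1.24 for Cd74 to 5.21 ± 0.76 for H2-DMb1. The B calls depended on the number of mice: without the hashtag 1 mouse 3 of 7 passed and without the hashtag 3 mouse 2, with estimates of 4.37 to 6.63 and of 3.52 to 5.9. Likewise 3 of 7 macrophage calls passed without either the hashtag 1 or the hashtag 3 mouse, with estimates of 4.06 or more. The dendritic calls held in all 7 genes whichever mouse was left out, and 4 of 7 passed where the gates asked for at least 5 markers and also lowered the hepatocyte limit of the other classes to 0.5 times the cut, with estimates of 5.07 to 5.97.

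Against endothelial barcodes the picture was the same. All 7 genes were higher in dendritic barcodes (background 22.4%), from 5.27 ± 0.80 for H2-DMa to 7.49 ± 0.93 for H2-DMb1, and all 7 in B barcodes (background 12.8%), from 3.81 ± 0.99 for H2-Eb1 to 6.03 ± 1.13 for Ciita. Macrophage barcodes were higher in 6 of 7 (background 11.8%), with Cd74 at 3.55 ± 1.21 missing the threshold (edgeR adjusted p = 0.0601). Leaving out the hashtag 3 mouse left 1 of the 7 B calls and 2 of the 6 macrophage calls, and leaving out the hashtag 1 mouse 3 and 2. Of the dendritic calls, Cd74 missed the threshold without the hashtag 3 mouse (edgeR adjusted p = 0.0597). Under the gates with at least 5 markers and the lowered hepatocyte limit, 4 of 7 dendritic and 1 macrophage comparison passed, with dendritic estimates of 5.18 to 7.05.

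Among the presenting cells the fit separated less. Between dendritic and B barcodes 1 of 7 genes was called (background 12.8% higher in dendritic cells): H2-DMb1, higher in dendritic barcodes by 2.57 ± 0.76 on the log2 scale (edgeR adjusted p = 0.0295). The estimate was 2.53 without the hashtag 1 mouse (adjusted p = 0.0729), 2.30 without the hashtag 3 mouse (adjusted p = 0.147) and 2.43 with RLE scaling (adjusted p = 0.0508), none of which passed, and 5 of 7 were called with no low-count filter. H2-Eb1 at 2.13 ± 0.90 and H2-Ab1 at 2.07 ± 1.03 did not pass (adjusted p = 0.124 and 0.192), and Ciita stood at -0.21 ± 0.76. Between dendritic and macrophage barcodes 0 of 7 were called (background 15.8% in either direction), with 0 of 7 at an unadjusted p under 0.05 and 0 by DESeq2. With no low-count filter edgeR called 5. The estimates ran from 0.75 ± 0.69 for H2-DMb1 to 2.23 ± 1.06 for H2-Eb1. Between macrophage and B barcodes 0 of 7 were called by edgeR (background 18.4%), 1 at an unadjusted p under 0.05 (H2-DMb1, 1.81 ± 0.84, adjusted p = 0.153) and 0 by DESeq2. With SEs near 1, a 4-fold difference, 2 on this scale, could be missed.

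Endothelial and hepatocyte barcodes were not told apart by these genes. 0 of 7 genes were called by edgeR, 0 at an unadjusted p under 0.05 and 0 by DESeq2, while 48.0% of all genes tested were called in either direction. The estimates ran from -1.52 ± 1.07 for H2-DMb1 to 0.84 ± 0.79 for H2-DMa. With hepatocytes limited to under 3 markers of every other list 2 members were called higher in endothelial barcodes, and with the same limit on endothelial barcodes 1. Over all genes, 1240 of 3523 and 1108 of 3507 were called higher there in these fits, so the member counts do not stand out. The level in both classes came from few barcodes. In the endothelial class 13 of 577 barcodes held 10 or more class II UMIs, and among the 547 with under 3 markers of every other list the level was 318.1 CPM against 1250 CPM, with 318 of the remaining 688 UMIs in 1 barcode of the hashtag 1 mouse and 96 in 1 of the hashtag 3 mouse.

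The rest of the antigen-presentation machinery followed the same split in part. The list named 19 genes of class II loading, regulation and costimulation, chosen, as the members were, with earlier results known. 18 were measured, 9 of them passed the low-count filter and Ifi30 was not analysed here. Against hepatocytes 7 of the 9 were higher in dendritic barcodes (27.6% of all genes were) and 1 lower, with a median log2 difference of 5.68. H2-Oa and H2-Ob, which encode the brake on DM, were higher by 6.26 ± 0.75 and 5.68 ± 0.57, and Cd86 and Cd40, which costimulate T cells, by 6.46 ± 0.73 and 4.93 ± 0.48. Ctsl, the protease cathepsin L, was lower, at -3.99 ± 0.52. It read 818.3 CPM in hepatocytes and 1730 CPM in endothelial cells against 42.77 CPM in dendritic barcodes. Its relative cathepsin S (Ctss), which trims the invariant chain in presenting cells, read 1800 CPM in macrophage, 367.8 CPM in dendritic and 3.493 CPM in hepatocyte barcodes.

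Dendritic and macrophage barcodes differed in 6 of these 9 genes (15.8% of all genes were called). H2-DMb2, H2-Oa, H2-Ob and Cd40 were higher in dendritic barcodes, by 3.66 ± 1.06, 4.59 ± 1.2, 5.24 ± 1.06 and 2.65 ± 0.63, and Ctsl and Lgmn, the endopeptidase legumain, were lower, at -2.88 ± 0.56 and -3.72 ± 0.31. Lgmn read 1651 CPM in macrophage and 88.7 CPM in dendritic barcodes. Between dendritic and B barcodes 1 of the 9 was called higher, Lgmn at 1.48 ± 0.43 (edgeR adjusted p = 0.0261), a share near the 12.8% over all genes. In B barcodes H2-Oa and H2-Ob read 293.6 and 317.4 CPM against 137.7 and 112.3 CPM in dendritic barcodes. The DNA-binding partners of CIITA were low everywhere: Rfx5, Rfxank, Nfya and Nfyc did not exceed 50 CPM in any class, and Nfyb was highest in hepatocytes, at 66.22 CPM.

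Interferon-gamma, the cytokine that induces Ciita in many cells, had its highest level in T/NK barcodes. Ifng stood at 420.7 CPM there (128 UMIs) and at 0.658 CPM in dendritic, 1.668 CPM in endothelial and 0.282 CPM in hepatocyte barcodes, which by their number still held 32 UMIs. Among the genes of its pathway, Irf1 was higher in dendritic barcodes than in hepatocytes by 2.92 ± 0.31, Jak2 by 3.04 ± 0.45 and the receptor Ifngr1 by 1.46 ± 0.45, whereas Jak1 stood at -0.21 ± 0.26 and Ifng itself at -0.44 ± 1.28 and neither was called.

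Within the dendritic class the class II genes did not move as 1 block. The barcodes were split, after their values had been seen and so with no test, into 397 with more UMIs of the 5 markers of migrating, mature dendritic cells (Ccr7, Fscn1, Ccl22, Il4i1, Cacnb3) than of the other 7 dendritic markers, called the Ccr7 group here, and the other 357. In total they differed little, 59781 against 64789 CPM of class II. In proportion the loading and regulating genes stood furthest apart, while most of the gap in CPM was H2-Ab1. H2-DMa read 364.9, 359.2 and 181.4 CPM in the Ccr7 group of the 3 mice and 984.2, 1092 and 1253 CPM in the others, H2-DMb1 177.9, 167.0 and 141.1 against 564.8, 671.4 and 680.0 CPM, and Ciita 39.22, 48.85 and 60.45 against 156.4, 126.4 and 107.4 CPM. None of these ranges overlapped, but the Ccr7-group values of the hashtag 3 mouse rest on 9, 7 and 3 UMIs. The interval of its Ciita value, 12.47 to 176.7 CPM, spans the Ciita values of the others.

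The chain genes differed less in proportion. H2-Ab1 read 8624, 10846 and 8040 CPM in the Ccr7 group against 12909, 14451 and 15336 CPM, whereas H2-Aa, at 9554 to 11094 against 10424 to 11989 CPM, overlapped. Cd74 was 24775, 28828 and 20151 CPM in the Ccr7 group and 24112, 26185 and 27558 CPM in the others, higher in the Ccr7 group of 2 mice and lower in that of the hashtag 3 mouse, which has 6 barcodes in each group. March1, the ubiquitin ligase that takes class II off the surface, was nearly silent in the Ccr7 group, at 2.1, 2.33 and 0 CPM (3, 5 and 0 UMIs in the 3 mice) against 77.54, 48.85 and 17.89 CPM. Cd40 ran the opposite way, at 263.3, 225.7 and 120.9 against 78.84, 44.06 and 35.79 CPM.

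**Figure D2:**
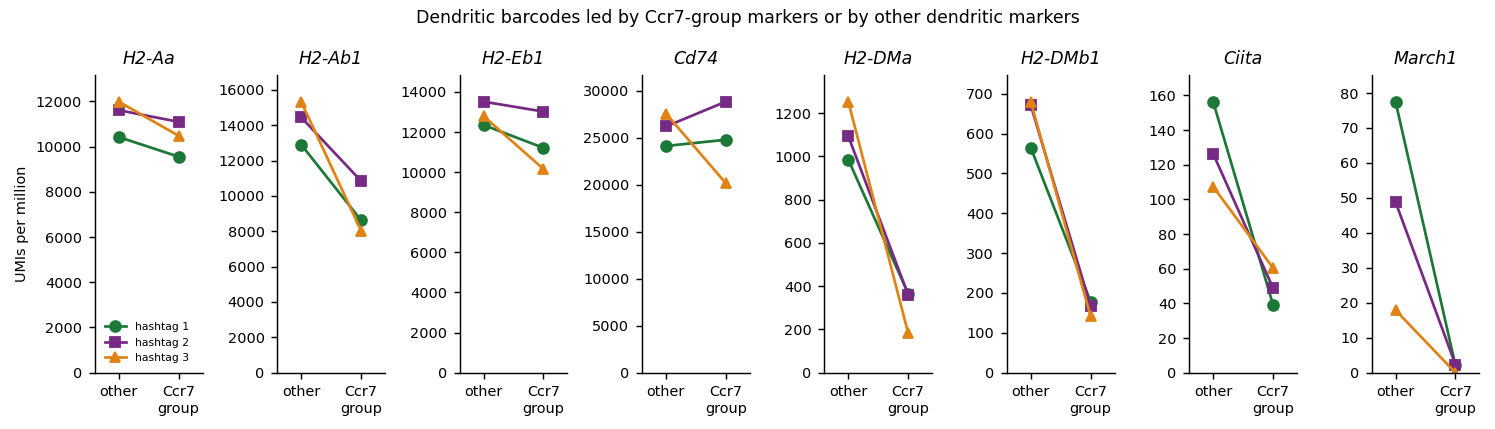
Levels (CPM, linear axes from 0) of the 7 class II genes and March1 in dendritic barcodes with more UMIs of the Ccr7-group markers or of the other dendritic markers, 1 line for each mouse, with no error bar. H2-DMa reads 984.2 to 1253 CPM in the others and 181.4 to 364.9 CPM in the Ccr7 group, whereas the Cd74 lines cross.

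Over the 17 sums of the fit, the genes outside the lists whose level was most like the mean log2(CPM + 1) of the 7 members were Cd83 (Pearson r = 0.961), Ly86 (0.955), Gm6377 (0.95), Pkib (0.949) and Spi1 (0.938), among 12694 genes. The members themselves scored 0.952 for Ciita to 0.993 for H2-Aa, with the mean holding each of them. The 17 points share 3 mice, 1 pool and the depth of each class, so these r values describe the class pattern and no more. Cd83, a surface protein that keeps class II on the membrane, read 1076, 1362 and 815.1 CPM in dendritic barcodes and 39.98, 8.551 and 19.81 CPM in hepatocytes.

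In hepatocytes class II UMIs were spread very unevenly. Of the 8392 barcodes 4450 (53.03%) held none, 2361 (28.13%) held 1 and 1412 (16.83%) held 2 to 9. At the other end 77 barcodes, 0.917% of all, held 200 or more and carried 42796 of the 53248 class II UMIs (80.37%), a load like that of a dendritic barcode. The 115 with at least 50 UMIs carried 85.75%. So the hepatocyte level of 468.5 CPM was set by about 1 barcode in 100.

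The loaded barcodes came with dendritic genes. Of the 77 with 200 or more class II UMIs, 74 (96.1%) held at least 3 different dendritic markers and none lacked a dendritic marker UMI. Of the 38 with at least 50 but under 200, 12 (31.58%) held 3 dendritic and 14 held 3 B markers. Of the 54 with 10 to 49, 7 (12.96%) held 3 dendritic and again 14 held 3 B markers. Among the 4450 barcodes with no class II UMI 0 held 3 dendritic markers and 94.43% held none. Of the 169 barcodes with 10 or more class II UMIs, 127 held at least 3 markers of a dendritic, plasmacytoid, macrophage or B list.

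Hashtag doublets, barcodes called for more than 1 mouse, were also more frequent among the loaded barcodes. They made up 18.26% of the 115 barcodes with 50 or more class II UMIs (21 barcodes, 95% exact interval 11.67 to 26.55%) and 0.997% of the 8223 with fewer than 10 (interval 0.794 to 1.24%). These shares stand on unlike bases, since 6146 of the 8223 carried too little hashtag for any call, against 1 of the 115. Barcodes called for 1 mouse numbered 1995 of the 8223, beside 82 doublets, and 93 of the 115, beside 21. Over the whole library 253 barcodes (1.926%) were called doublets, and 7504 carried too little hashtag for any call. A pair of cells of the same mouse in a droplet carry 1 hashtag and cannot be seen in this way. No doublet caller was run on the expression data.

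**Figure D3:**
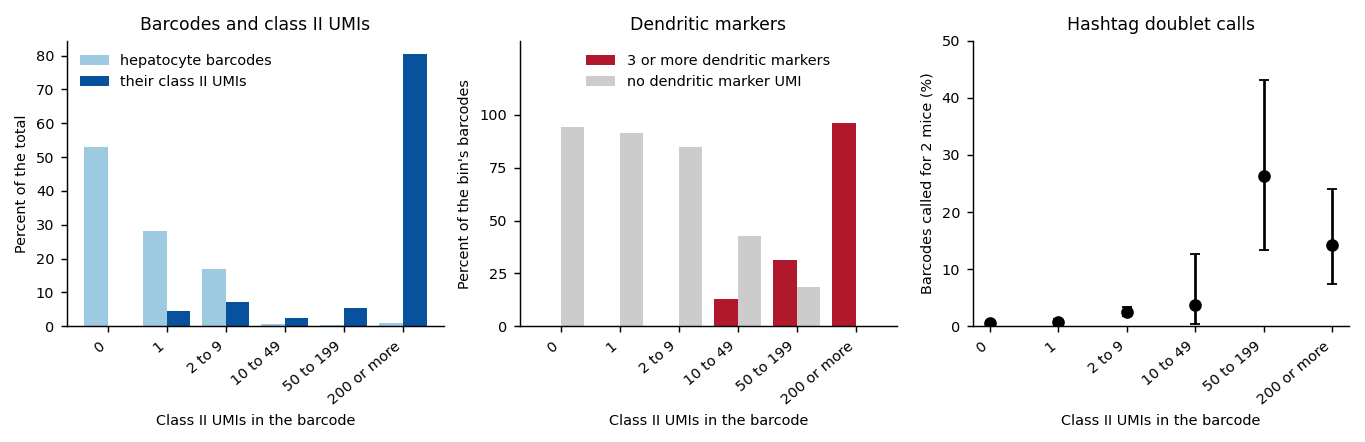
Hepatocyte barcodes binned by their class II UMIs, from 0 to 200 or more. The panels show the share of hepatocyte barcodes and of class II UMIs in each bin, the share of each bin with at least 3 or with no dendritic marker, and the share called for 2 mice by hashtag with 95% exact intervals. The last bin has 0.917% of the barcodes, 80.37% of the UMIs and 96.1% with 3 dendritic markers. Barcodes with too little hashtag for a call count in the base of the doublet share, 3715 of 4450 in the first bin and 0 of 77 in the last.

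The mixture of the 7 genes and of the dendritic markers was compared next, since 1 source keeps its genes in a fixed ratio. Dendritic barcodes held 17.67 class II UMIs for each dendritic marker UMI (interval 17.45 to 17.89; 17.77, 17.6 and 16.46 in the 3 mice). Hepatocyte barcodes held 17.19 (16.58 to 17.83; 18.49, 17.26 and 9.393). B barcodes held 39.3 and macrophage barcodes 55.21. Dendritic marker UMIs also entered the gates of these 3 classes, and the 99 hepatocyte barcodes named next were chosen by the same markers. Their ratios were thus partly set by the choice of barcodes and are a description. The 99 hepatocyte barcodes with at least 3 dendritic markers held 19.31 (18.5 to 20.16), with 429.9 class II UMIs in a barcode against 628.1 in a dendritic one. Their Cd74 share was 43.09% and their H2-DMb1 share 0.686%, beside 41.77% and 0.643% in dendritic barcodes. In the 29 hepatocyte barcodes with at least 3 B markers the ratio was 30.94 and the Cd74 share 46.84%, on the B side of the dendritic values. Their H2-DMb1 share of 1.254% was not, with 0.355% in B and 0.643% in dendritic barcodes. In the 22 with at least 3 macrophage markers the ratio was 54.6 and the H2-DMb1 share 2.808%, against 1.684% in macrophage barcodes. Their Cd74 and H2-Eb1 shares, 48.23% and 13.19%, stood apart from the 41.53% and 18.32% of macrophage barcodes.

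The same question was put at equal depth. Hepatocyte barcodes called for 1 mouse were thinned to 2000 UMIs (1904 barcodes, with 231 too shallow) and divided by whether a dendritic marker UMI remained. The 105 barcodes with one held 44.0, 39.84 and 10.76 class II UMIs each in the hashtag 1, 2 and 3 mice. The 1799 without held 1.278, 0.405 and 0.531. The mean with was above the mean without in all 3 mice, although 71.43% of the barcodes with and 14.17% of those without held any class II UMI, so single barcodes overlapped. Of the 7 genes 5 passed the low-count filter, which they could do through the loaded group alone, and H2-DMb1 and Ciita did not. H2-DMa, at 0.009 to 0.015 UMIs in a barcode without dendritic marker UMIs, is too sparse there for its fold to be read. Among genes of which 3.41% of 3171 were called higher by edgeR, Cd74 stood at 5.51 ± 0.40 on the log2 scale (adjusted p = 0.000591), H2-Aa at 5.53 ± 0.58, H2-Ab1 at 5.61 ± 0.53 and H2-Eb1 at 5.74 ± 0.46 (adjusted p = 0.00189). These estimates were 5.45 to 5.83 without the hashtag 1 mouse, but H2-Aa and H2-Ab1 then missed the threshold (adjusted p = 0.226 and 0.22). Thinning to 5000 UMIs left 2 members called and allowing 50% mitochondrial UMIs left 1, with estimates of at least 5.18 for these 4.

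The other lists gave smaller or untested differences. With and without a macrophage marker UMI, 44 and 1860 thinned hepatocyte barcodes held 2.545 and 2.509 class II UMIs each. None of the 4 members tested was called by edgeR (background 0.609%), 1 had an unadjusted p under 0.05 (H2-Eb1, -1.29 ± 0.44, adjusted p = 0.384) and DESeq2 called 0. With an endothelial marker UMI the 241 barcodes held 1.158 and without it 1663 held 2.705. 0 of 4 were called by edgeR (background 1.82%), 0 at an unadjusted p under 0.05 and 0 by DESeq2, with estimates of -0.89 ± 0.70 to -1.35 ± 0.64. Without the hashtag 2 mouse all 4 were called lower. Barcodes with a B marker UMI held 23.94 class II UMIs each and those without 2.328, but there were 16 of them, fewer than 10 in every mouse, and no test was made.

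**Figure D4:**
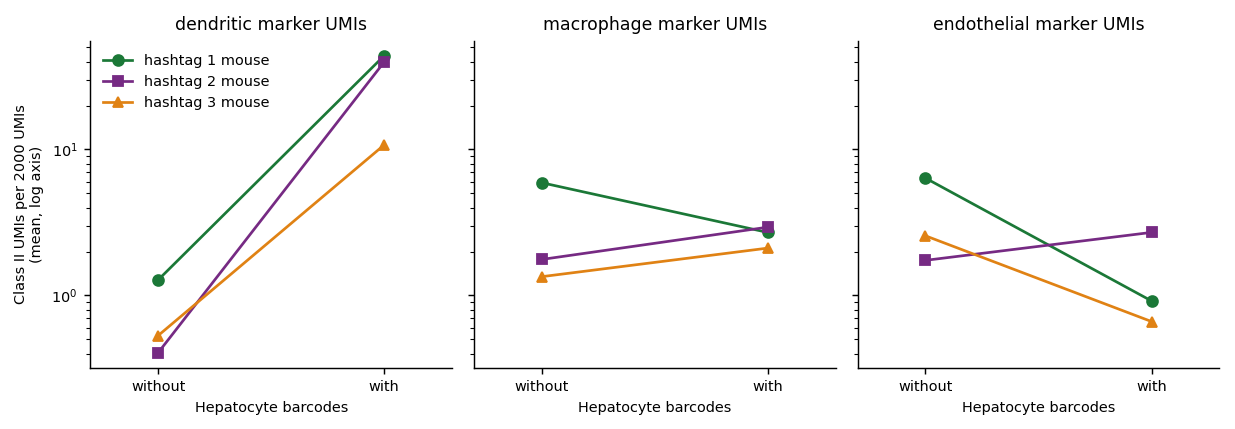
Class II UMIs in a hepatocyte barcode thinned to 2000 UMIs (mean, log axis), with or without a UMI of the dendritic, macrophage or endothelial list, 1 line for each mouse, with no error bar. The dendritic pairs lie far apart in all 3 mice, 10.76 to 44.0 against 0.405 to 1.278, and the macrophage and endothelial lines run in different directions in different mice.

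Barcodes with few foreign markers held much less. The 7905 hepatocyte barcodes with under 3 markers of every other list held 8073 class II UMIs, 76.83 CPM, and 45.9% of them held at least 1 (interval 44.79 to 47.0%, median depth 3703 UMIs). They still include loaded barcodes: 40 held 10 or more, up to 660, and 12 with at least 50 carried 20.35% of these UMIs. T/NK cells of the mouse should make next to no class II. Yet 45.68% of the 81 T/NK barcodes with under 3 markers of every other list held a class II UMI (34.56 to 57.13%, median depth 3145 UMIs), at 193.5 CPM (146.2 to 251.3) and never more than 4 in a barcode. Taken whole, the T/NK class stood at 2199 CPM because 1 barcode of the hashtag 2 mouse held 600 of its 669 class II UMIs. Thinned to 2000 UMIs, 19.33% of 6264 hepatocyte barcodes (18.36 to 20.33%), 34.67% of 75 T/NK barcodes (24.04 to 46.54%), 25.69% of 510 endothelial barcodes (21.95 to 29.71%) and all of 28 B barcodes held a class II UMI, and 2128, 8, 67 and 23 barcodes were too shallow. The hepatocyte share lay below that of the T/NK class, which had no limit on foreign markers here. Hepatocyte barcodes ran up to 135715 UMIs and T/NK barcodes up to 17984, so thinning removed a larger part of the deepest hepatocytes. Free RNA adds UMIs per droplet and would be thinned with them. The thinned shares therefore cannot decide whether hepatocytes express class II, and none of them is read here as expression. All intervals cover counting error only.

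Depth and class II were compared next. In hepatocytes with under 3 markers of every other list the mean was 0.614 class II UMIs in barcodes of 1000 to 2000 UMIs and 2.38 in those of 50000 or more, a level of 415.5 CPM in the first and 37.0 CPM in the last. In the bin of 2000 to 5000 UMIs these hepatocytes held 0.543 class II UMIs each (0.515 to 0.571) and 35.6% held at least 1. T/NK barcodes of the same bin, with no limit on foreign markers and 1 barcode of 13 class II UMIs among them, held 0.754 (0.558 to 0.997) and 41.54% (29.44 to 54.44%), and endothelial barcodes 0.889 and 35.33%. The intervals of the hepatocyte and T/NK values overlapped. The source of these UMIs was not tested.

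**Figure D5:**
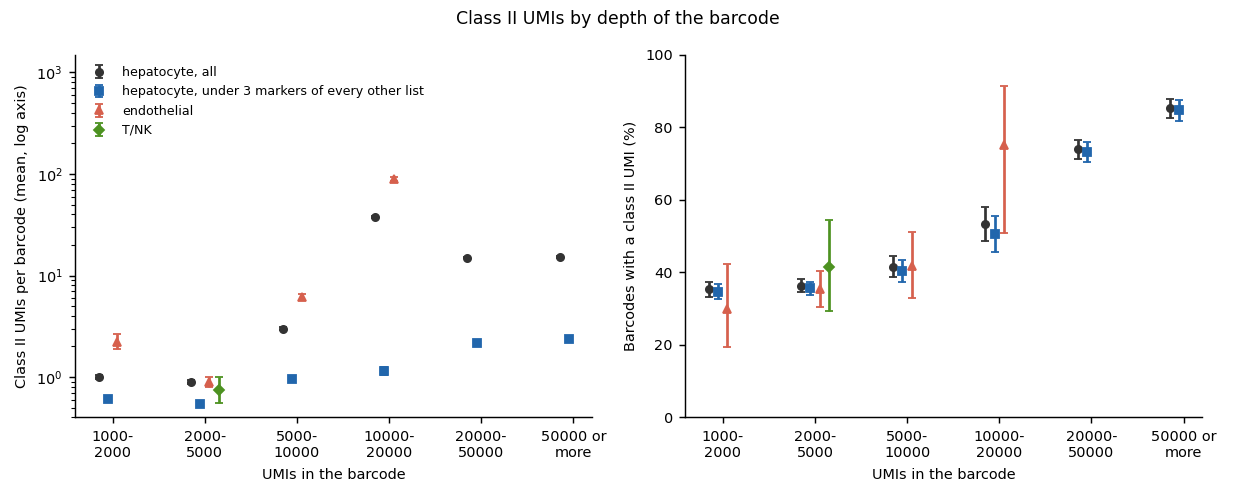
Class II UMIs in a barcode (mean, log axis, with exact Poisson 95% intervals) and the share of barcodes with a class II UMI (with exact binomial 95% intervals) by the depth of the barcode, for all hepatocytes, hepatocytes with under 3 markers of every other list, endothelial and T/NK barcodes; bins of under 20 barcodes are left out. At 2000 to 5000 UMIs the shares are 35.6% in those hepatocytes, 35.33% in endothelial and 41.54% in T/NK barcodes.

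The mixture in barcodes of few class II UMIs or few foreign markers was not quite that of dendritic cells. Hepatocytes with under 10 class II UMIs held 7.759 class II UMIs for each dendritic marker UMI (7.207 to 8.362). Those with under 3 markers of every other list held 11.57 (10.7 to 12.51). The whole T/NK class, which read Ccr7 at 154.5 CPM itself, held 10.79 (8.31 to 14.23). By mouse that was 1.2, 17.25 and 2.067, with 600 of its 669 class II UMIs in 1 barcode of the hashtag 2 mouse. Endothelial barcodes, which read Zbtb46 and Fscn1 themselves, held 5.278. The Cd74 share was 36.51% in hepatocytes with under 10 class II UMIs and the H2-Ab1 share 22.12%, against 41.77% and 18.95% in dendritic barcodes. Choosing barcodes by few class II UMIs or few markers changes such ratios by itself.

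Class II with no UMI of any presenting-cell list beside it was rare among the loaded hepatocytes, but the lists hold a gene that hepatocyte barcodes read widely. The plasmacytoid marker Ly6d stood at 1065 CPM in hepatocytes, so a UMI of these lists need not come from a presenting cell. Of the 169 barcodes with 10 or more class II UMIs, 30 held no dendritic marker UMI. In 2 of the 169 there was no UMI of the dendritic, plasmacytoid, macrophage or B lists. One held 12 class II UMIs of 19718, 8 of them H2-Ab1, and was called for no single mouse. The other held 11 of 2039, 6 of them Cd74, and belonged to the hashtag 1 mouse. None of the 115 with 50 or more lacked all of these markers, Ly6d included, and 7 of them held no dendritic marker UMI. Ciita was found in 0.192% of the hepatocytes thinned to 2000 UMIs (12 of 6264) and in 0 of 75 T/NK barcodes, which allows up to 4.8% of barcodes with a UMI at this depth (exact 95% bound). This limits barcodes with a UMI and not cells that make Ciita, which was read in 7 of 28 B and 119 of 746 dendritic barcodes thinned alike.

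The call between hepatocytes and T/NK barcodes depended on which barcodes entered. With all of them 0 of 7 were called by edgeR (48.4% of all genes were, in either direction), 1 had an unadjusted p under 0.05 (H2-DMa, -2.13 ± 0.87, adjusted p = 0.0572) and DESeq2 called that 1 lower in hepatocytes. The direction changed with the mouse left out. Without the hashtag 1 mouse 1 member was called lower in hepatocytes, where 612 of 5035 genes were. Without the hashtag 2 mouse, whose T/NK sum holds the barcode with 600 UMIs, H2-Aa and H2-Ab1 were called higher in hepatocytes, by 3.75 and 3.97. There 889 of 4163 genes were called higher. With hepatocytes limited to under 3 markers of every other list 3 members were called lower in hepatocytes, and with the same limit on T/NK and endothelial barcodes 1. Over all genes, 897 of 3523 and 852 of 3507 were called lower in these fits. With T/NK barcodes limited to those with no dendritic, macrophage or B marker UMI, 3 were called higher in hepatocytes, Cd74 at 3.22, H2-Aa at 3.75 and H2-Ab1 at 2.97. Of all genes in that fit, 1045 of 3589 were called higher. No direction is drawn from these.

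The mice differed in hepatocyte class II, and so did what came with it. The level was 2097, 381.2 and 842.6 CPM in the hashtag 1, 2 and 3 mice, and 42, 36 and 4 of their 414, 1338 and 383 hepatocyte barcodes held 3 or more dendritic markers. In barcodes with under 3 markers of every other list it was 103.9, 51.4 and 254.6 CPM, a different order. Their median depths were 10371, 41688 and 2481 UMIs, and the order of the levels is the reverse of that of the depths. With at least 10000 UMIs the hashtag 1 and 2 mice read 63.21 and 38.14 CPM, and the hashtag 3 mouse had 6 such barcodes. Depth and mouse cannot be told apart here, and since each construct has at most 2 mice whose tags are disputed, these values say nothing of NRAS.

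Hepatocytes were also compared by whether the transgene was read in them. Barcodes with a UMI of mVenus held 955.9, 265.7 and 77.02 CPM in the 3 mice and those without 3415, 481.5 and 1034 CPM. By edgeR with the mouse as a block, H2-DMa was lower in barcodes with mVenus, at -1.52 ± 0.27 on the log2 scale (adjusted p = 0.00373), as was H2-DMb1, at -1.81 ± 0.26 (adjusted p = 0.000373), 2 of 6 members tested, where 6.34% of 10494 genes were called lower. Ciita did not pass the low-count filter. H2-Aa, H2-Ab1, H2-Eb1 and Cd74 stood at -1.60, -1.60, -1.50 and -1.92 and did not pass. Without the hashtag 1 mouse H2-DMa missed the threshold (adjusted p = 0.0723), without the hashtag 2 mouse 4 members and without the hashtag 3 mouse 7 were called lower, and without the block neither was called (adjusted p = 0.716 and 0.696), as was true of all but 4 of the 10494 genes.

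Depth moved with it. Barcodes with mVenus had medians of 55965, 54661 and 5714 UMIs and those without 6388, 34664 and 2373. Dendritic marker UMIs numbered 340 in 102 barcodes with mVenus against 772 in 312 without it in the hashtag 1 mouse, 399 in 452 against 784 in 886 in the hashtag 2 mouse, and 13 in 44 against 150 in 339 in the hashtag 3 mouse. Per barcode they were thus more with mVenus in the hashtag 1 mouse, alike in the hashtag 2 mouse and fewer in the hashtag 3 mouse. As a share of all UMIs they were lower with mVenus in each mouse. The same barcodes held 5025 against 15533 class II UMIs, 6618 against 13798 and 28 against 1503. Per barcode, unlike in CPM, class II was thus alike in the hashtag 1 and 2 mice and lower with mVenus in the hashtag 3 mouse. In barcodes with under 3 markers of every other list the class II levels were 37.56, 36.54 and 68.64 CPM with mVenus and 187.4, 63.88 and 305.8 CPM without. With at least 5000 UMIs required, H2-DMa and H2-DMb1 were still called lower, at -1.48 and -1.74. The part of depth and of dendritic RNA in this difference was not tested beyond these values.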

How the data were processed

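The authors deposited 2 libraries of 1 pool of 3 mice: raw UMI counts per gene and barcode, made with Cell Ranger on mm10 (2.1.1 in the submitters' processing notes, 3.0.2 in the matrix header), and hashtag counts from CITE-seq-Count, neither normalised. The 2 10x lanes cannot be told apart. The mVenus and Nras rows stayed out of library sizes and tests.

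Mice were called with HTODemux (Seurat 5.3.0, quantile 0.99). The libraries shared 13141 barcodes, and 1324, 2796 and 1262 were called for hashtags 1, 2 and 3. Cells are not replicates, so UMIs were summed per mouse and class and fitted with edgeR 4.0.16 (quasi-likelihood F-test, filterByExpr, TMM), with the mouse as a block because same-hashtag sums come from 1 animal. A gene was called at an adjusted p under 0.05. CPM, shares and ratios carry exact 95% intervals for counting error only. DESeq2 1.42.0 was an alternative, as were other scaling, filters, gates, hashtag rules and depths, and each mouse left out. The fit was tested on simulated data. Promoters came from RefSeq and gene positions from GENCODE M21.

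The 7 members, the pathway, interferon-gamma and marker lists and the rule for genes most alike were chosen with earlier results of these data known. Named genes are the members, listed genes at 50 CPM or more in a class, and the 5 most alike. Of the interferon-gamma list, 1 gene is not reported here. Other genes named from these lists were chosen after their values were seen. The mice are separate animals, but the hashtag calls decide which barcodes belong to each.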

Additional observations from a re-analysis of the deposited data

Results flagged for a closer look

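Class II reads also stood outside the classes compared. The 289 barcodes that passed the quality filter and joined no class held 20842 class II UMIs, 5572 CPM (95% exact interval 5497 to 5649), above the 193.5 CPM of T/NK barcodes with under 3 markers of every other list. 50 of them held 50 or more and carried 98.08% of these UMIs. Of those 50, 19 held at least 3 markers of 2 lists, 19 held 3 dendritic, 6 held 3 B, 3 held 3 plasmacytoid and 2 held 3 macrophage markers. The 2940 barcodes left out by the quality filter held 10521 class II UMIs, 764.2 CPM, of which 21 barcodes carried 70.76%. Neither set entered a comparison between classes.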

How the results depend on the processing

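The 49 member calls were refitted 523 times: 449 kept their direction and stayed past the threshold, 74 missed it (46 with a mouse left out, 17 with at least 5 markers and the lowered hepatocyte limit together, 11 elsewhere) and 0 reversed. Counts of members called, by edgeR unless said, moved as follows; no cause was tested. With at least 5 markers and 0.5 times the hepatocyte cut as the upper limit, dendritic against hepatocyte and against endothelial gave 4 each, macrophage against hepatocyte 1 and against endothelial 1, the Cd74 share of dendritic class II UMIs 42.15% and their ratio to dendritic markers 16.84; B barcodes then left no sums and gave no value. With no low-count filter dendritic against B gave 5, dendritic against macrophage 5, macrophage against B 1, hepatocyte against T/NK 1, macrophage markers in hepatocytes 1 and mVenus 6. With RLE scaling dendritic against B gave 0, and the median over all genes there moved from 0.28 to 0.13. DESeq2 gave 1 for hepatocyte against T/NK and 5 for mVenus, and it split the genes of dendritic against B into 353 higher and 339 lower (edgeR 447 and 223) and of dendritic against macrophage into 259 and 421 (279 and 274). The fixed hashtag rule (at least 10 UMIs, 80% of 1 tag), which gave the hashtag 1 mouse 1528 hepatocyte barcodes in place of 414, gave 6 for mVenus.

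Hepatocytes with under 3 markers of every other list gave 2 for endothelial against hepatocyte, 3 for hepatocyte against T/NK, 39.79% for the Cd74 share, 11.57 for the ratio (7.759 with under 10 class II UMIs) and 103.9, 51.4 and 254.6 CPM in the 3 mice. Applying the same limit to all 3 classes, chosen after seeing the data, gave 1 and 1. T/NK barcodes with no dendritic, macrophage or B marker UMI, likewise chosen later, gave 3 for hepatocyte against T/NK, turned to higher in hepatocytes: Cd74 3.22, H2-Aa 3.75 and H2-Ab1 2.97. Thinning to 5000 UMIs gave 2 and allowing 50% mitochondrial UMIs 1 for dendritic markers in hepatocytes; the estimates stayed at 5.18 or more. Without the replicate block mVenus gave 0, and that was the only count the block moved by over 1.5 times.

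With 1 mouse left out the counts ranged from 1 to 7 for B against endothelial, 2 to 6 for B against hepatocyte, 0 to 1 for dendritic against B, 2 to 4 for macrophage against endothelial, 3 to 5 for macrophage against hepatocyte, 0 to 2 for hepatocyte against T/NK (H2-Aa 3.75 and H2-Ab1 3.97 reversed without hashtag 2), 3 to 6 for dendritic markers, 0 to 4 for endothelial markers and 3 to 7 for mVenus. Without the hashtag 1 or 2 mouse 1 macrophage sum is left, which is assumed to vary like the other classes. Macrophage markers thinned to 5000 UMIs gave no value. 12 dendritic barcodes of the hashtag 3 mouse, 11 B barcodes of the hashtag 1 mouse and 51 B barcodes in all limit these comparisons.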
